A study of Mus musculus with 27 samples.

Results

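The livers compared here came from 6 mice labelled Dex 4 to Dex 9 and 6 mice labelled Veh 4 to Veh 9, which make up 12 of the 27 mice of the study. The study measured RNA from 1 mouse liver per Affymetrix array, in 9 mice labelled Dex, 9 labelled Veh and 9 labelled Con. What the names stand for is not written in the labels, which give no agent, dose, time, strain, sex, age or genotype. They do not set mice 1 to 3 apart from mice 4 to 9 either. The 6 Dex mice were chosen by the log2 intensities of glucocorticoid-induced genes, since their livers lacked the strong profile seen in Dex 1 to Dex 3, so the levels of glucocorticoid-induced genes are given as a description, without a test. The Veh mice with the same numbers were set against them, and the question was which differences remain between these mice.

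In the liver, glucocorticoids enter hepatocytes and bind the glucocorticoid receptor, a transcription factor of the nuclear receptor family. The receptor switches on genes such as Tat, Tdo2 and Fkbp5 in hepatocytes and restrains inflammatory and interferon-driven genes in immune and parenchymal cells. Interferons act through STAT and IRF factors, which bind short motifs called ISRE and GAS upstream of genes for antiviral proteins, immunity GTPases and the immunoproteasome.

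The choice of mice rested on glucocorticoid-induced genes, of which 22 of 27 listed were tested. The score of the list, the mean log2 intensity of its members minus the mean of the 9 Con mice, ran from -0.17 to 0.58 in Dex 4 to 9, from -0.45 to 0.16 in Veh 4 to 9, and from -0.56 to 0.75 in Con. In Dex 1 to 3 it ran from 2.60 to 2.76. Dex 4 had the highest score of the 6 Dex mice and Dex 3 the lowest of the 3 set aside, so no Dex mouse lay between 0.58 and 2.60. Tat, the tyrosine aminotransferase, had log2 intensities of 11.54, 11.96 and 12.46 (lowest, median, highest) in Dex 4 to 9, against 10.69, 11.56 and 12.24 in Veh 4 to 9, while Dex 1 to 3 had 13.50 to 13.94. Fkbp5, a co-chaperone of the receptor, had 5.88, 6.86 and 7.34 in Dex 4 to 9 and 5.05, 5.85 and 7.41 in Veh 4 to 9, with 10.90 to 11.53 in Dex 1 to 3. Both genes overlapped between the 6 Dex and 6 Veh mice, and both were far higher in Dex 1 to 3.

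Members of the list did not all lie close to Veh. Metallothionein 1 (Mt1), a metal-binding protein, had 7.70, 8.98 and 12.27 in Dex 4 to 9, against 5.31, 6.84 and 8.89 in Veh 4 to 9. Metallothionein 2 (Mt2) had 8.05, 9.50 and 12.18 in Dex 4 to 9, against 6.16, 6.87 and 9.02 in Veh 4 to 9. Mt1 spanned 3.97 to 12.23 in the 9 Con livers, a wider range than in Dex or Veh, and both genes overlapped between Dex 4 to 9 and Veh 4 to 9. Lcn2, a siderophore-binding protein of neutrophils and inflamed hepatocytes, had 7.70, 9.44 and 11.90 in Dex 4 to 9, against 3.67, 7.01 and 10.18 in Veh 4 to 9. A second, dimmer Lcn2 probe set had 4.26, 5.64 and 6.14 in Dex 4 to 9, against 4.07, 4.77 and 5.12 in Veh 4 to 9. Of the 22 members, 11 had a positive and 11 a negative difference.

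The log2 medians of the 12 arrays ran from 4.19 to 5.06, and no pair of arrays held identical values. Each of the 9 hepatocyte markers tested had a median log2 intensity of at least 11.08 in Dex 4 to 9 and at least 11.07 in Veh 4 to 9. The within-group SD of a probe set had a median of 0.508 in Dex 4 to 9, 0.448 in Veh 4 to 9 and 0.375 in Con. The Gapdh 3′ to 5′ probe ratio, a sign of RNA degradation or incomplete labelling, was 0.196 ± 0.142 on the log2 scale in Dex 4 to 9 and 0.416 ± 0.182 in Veh 4 to 9 (SD, n = 6 each, two-sided exact permutation p = 0.0368, adjusted over 4 array measures 0.134). The same ratio for beta-actin was 0.93 ± 0.19 in Dex 4 to 9 and 1.09 ± 0.10 in Veh 4 to 9 (exact permutation p = 0.0671, adjusted 0.134). Veh 7 stood apart within Veh 4 to 9, with an interferon score of 1.61 where the other 5 lay between -0.31 and -0.02. Veh 2, outside the comparison, had a high score too, at 1.13. The medians of the interferon, antigen presentation, macrophage and neutrophil lists are also given without Veh 7, as are the differences of some of their genes.

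Across the transcriptome, 1 of 6784 probe sets passed the test between Dex 4 to 9 and Veh 4 to 9, which is 0.0147% (limma, Benjamini-Hochberg adjusted p under 0.05). It was lower in Dex, and 0 probe sets (0%) passed as higher. Without adjustment, 604 probe sets (8.9%) had p under 0.05, of which 294 (4.33%) were higher and 310 (4.57%) lower in Dex. The median log2 difference over the 5200 genes tested was -0.02, and 52.7% of them had a lower mean in Dex. Leaving out Dex 6 or Dex 8 gave 2 probe sets in place of 1. Whether the genes tested move with the glucocorticoid-induced genes that chose the mice was not tested.

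The probe set that passed, 101515_at, has no gene symbol in the annotation used here and is unnamed. Its log2 intensity was 8.66, 9.19 and 9.78 in Dex 4 to 9, against 10.06, 10.31 and 10.50 in Veh 4 to 9, so the 6 Dex livers all lay below the 6 Veh livers. It fell by 1.06 ± 0.17 on the log2 scale (SE, limma adjusted p = 0.00533). Con livers had 9.45 to 10.06, between the medians of the Dex and Veh groups. Its call held when each mouse was left out in turn. It was lost when the fit used the 12 arrays alone (limma adjusted p = 0.185) or the 18 Dex and Veh arrays (0.112). It was also lost with a block for the replicate number, fitted to the 12 arrays alone (limma adjusted p = 0.528). In the fit of the 12 arrays the only call was instead Gstm2, higher in Dex (limma adjusted p = 0.00795).

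The groups did not overlap at all for 22 probe sets, 0.324% of those tested, with 9 (0.133%) higher and 13 (0.192%) lower in Dex. They included 19 genes with a single symbol, 8 higher and 11 lower. The count depends on each mouse, since dropping 1 removes a condition. Leaving out Dex 4 or Dex 7 gave 41, Dex 5 gave 35, Dex 6 gave 50, Dex 8 gave 54 and Dex 9 gave 36. Leaving out Veh 6 gave 58, Veh 7 gave 47 and Veh 9 gave 37. With all 9 Veh mice as the comparison the count was 4. None of the 19 genes passed the adjusted test. Some probe sets can separate 6 from 6 mice by chance alone, and the share to expect from chance was not tested. The genes without overlap are therefore given as a description.

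Among genes higher in Dex with no overlap, Usf1 had the smallest p. Usf1 is a helix-loop-helix factor that binds E-boxes in promoters of lipid and glucose metabolism genes. Its log2 intensity was 7.55, 8.17 and 8.83 in Dex 4 to 9, against 6.85, 7.30 and 7.49 in Veh 4 to 9. The difference was 0.95 ± 0.20 (SE, limma adjusted p = 0.146), and without Dex 6 it passed the test (1.08, limma adjusted p = 0.0211). A second Usf1 probe set differed by 0.70 (limma adjusted p = 0.484), with overlapping groups. Dex 1 to 3, which were not part of this comparison, had 8.03 to 8.40, and Con had 6.80 to 8.0.

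Gstm2, a mu-class glutathione transferase, had 8.39, 8.75 and 9.57 in Dex 4 to 9, against 6.65, 7.25 and 7.68 in Veh 4 to 9. The difference was 1.61 ± 0.38 (SE, limma adjusted p = 0.220), and the Dex median lay above the Con range of 6.91 to 8.64. The mice outside the comparison did not separate, with 6.60 to 9.38 in Dex 1 to 3 and 6.90 to 9.15 in Veh 1 to 3. A second Gstm2 probe set, at 1.05, had the same sign with overlapping groups, and mu-class genes are close in sequence, so the signal of relatives cannot be kept apart. Icmt, which methylates the carboxyl end of prenylated proteins, had 4.94, 5.31 and 6.02 in Dex 4 to 9, against 3.14, 3.87 and 4.87 in Veh 4 to 9. Here the Veh livers, not the Dex livers, had a median outside the Con range of 4.51 to 6.03.

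Afm, or afamin, is a vitamin E-binding plasma protein made by hepatocytes. Its log2 intensity was 7.91, 8.80 and 9.0 in Dex 4 to 9, against 9.07, 9.46 and 9.60 in Veh 4 to 9, and 8.86 to 9.38 in Con. The Dex median lay below the Con range and the Veh median above it. The difference was -0.73 ± 0.17 (SE, limma adjusted p = 0.220). Dex 5 had the lowest value, and the next Dex liver had 8.69.

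Iars2, the mitochondrial isoleucyl-tRNA synthetase, had 5.49, 5.92 and 6.28 in Dex 4 to 9, against 6.55, 6.68 and 7.26 in Veh 4 to 9, and the Dex median lay under the Con range of 6.50 to 7.02. Gatm, the first enzyme of creatine synthesis, had 5.47, 5.77 and 6.06 in Dex 4 to 9, against 6.31, 6.58 and 7.11 in Veh 4 to 9, with Con at 5.20 to 6.88. Rarres2, chemerin, a secreted chemoattractant, had 10.54, 10.80 and 10.95 in Dex 4 to 9, against 10.998, 11.20 and 11.67 in Veh 4 to 9. Con livers had 10.58 to 11.09 for Rarres2, a range that held the Dex median and not the Veh median. For these 3 genes every Dex liver lay below every Veh liver, with log2 differences of -0.85, -0.93 and -0.50. Other genes without overlap, named after their values were seen, were Tgfb3, Pelo, B4galt3, Cbfa2t3 and Slc22a17, higher in Dex, and Prodh2, Wipi2, Itm2b, Itm2c and Trim13, lower in Dex. Tmsb4x and Actg1, also lower, are described with the cytoskeleton.

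Of the 19 genes, 5 had a Dex median outside and a Veh median inside the range of the 9 Con mice, 5 had the reverse, 8 had both medians inside it and 1 had both outside. Over all 5200 genes tested these counts were 597, 473, 3573 and 557.

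**Figure D1:**
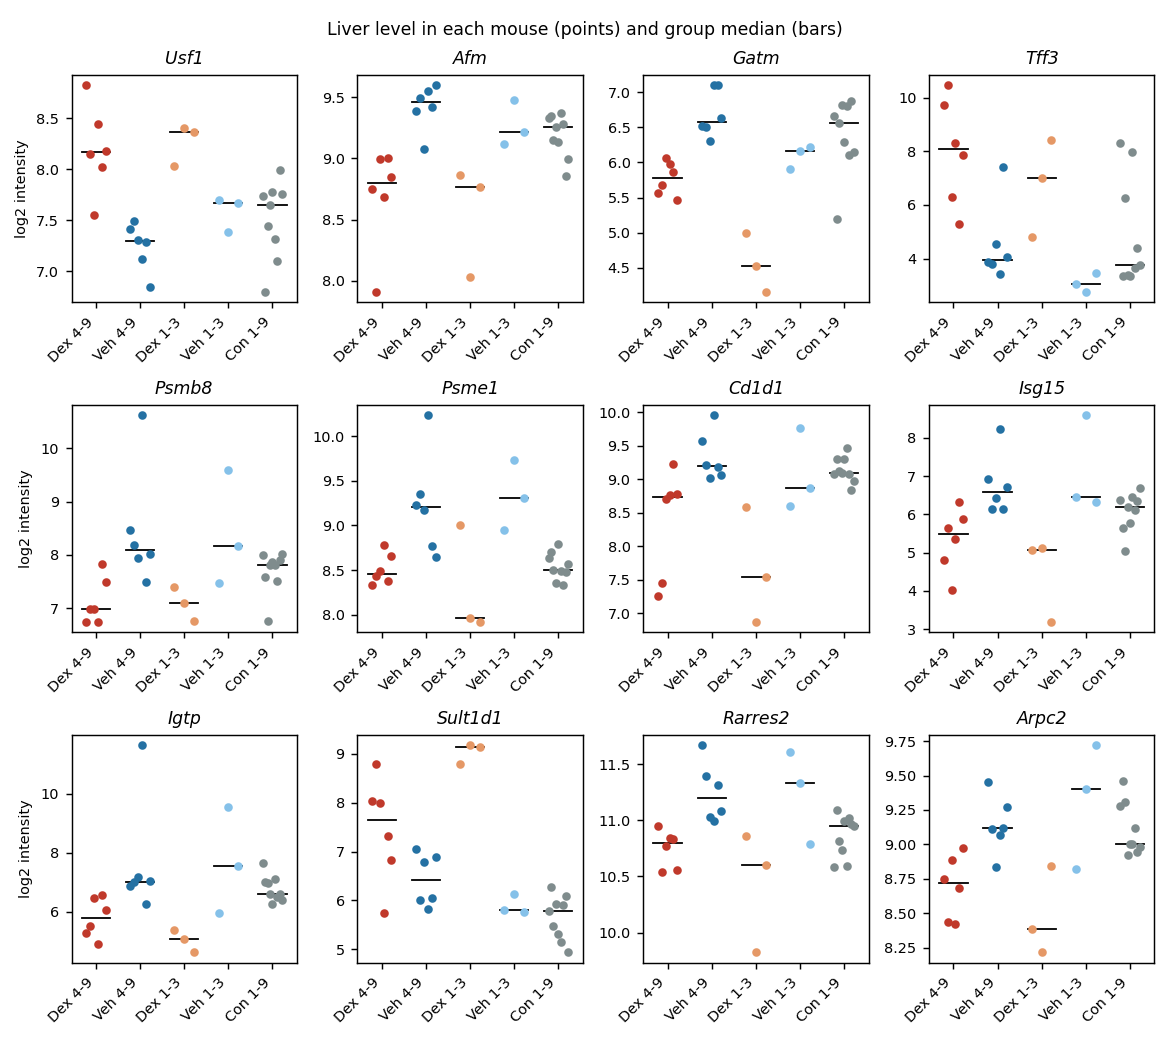
Log2 intensity (vertical axis) of the 12 genes called in the comparison of all 9 Dex with all 9 Veh mice, with a point for each mouse and a bar at each group median, in Dex 4-9, Veh 4-9, Dex 1-3, Veh 1-3 and Con 1-9. Usf1, Afm, Gatm and Rarres2 separate the 6 Dex from the 6 Veh livers, while Psmb8, Isg15 and Igtp overlap, with Veh 7 the highest of Veh 4-9 (Veh 2, outside the comparison, is high for these 3 genes too, and above Veh 7 for Isg15).

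The comparison of all 9 Dex with all 9 Veh mice called 18 of 6784 probe sets (0.265%, limma adjusted p under 0.05), 12 of them for genes with a single symbol. In Dex 4 to 9 against Veh 4 to 9 these 18 all had the same sign as over all mice, 5 did not overlap and 1 passed the adjusted test. The 6 mice are part of the 9, so the shared sign is a description and no separate evidence. The 12 genes were Usf1, Afm, Gatm, Tff3, Psmb8, Psme1, Cd1d1, Isg15, Igtp, Sult1d1, Rarres2 and Arpc2, and their values in each mouse are in the plot of the 12 genes.

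Tff3, a trefoil peptide of mucous epithelia, had the widest difference of the 12. Tff3 exceeded its array's median in at least 9 arrays, the rule for testing, only with the Dex arrays counted. Its entry into the test therefore depended on the group in which it was higher. Its log2 intensity was 5.29, 8.08 and 10.47 in Dex 4 to 9, against 3.45, 3.97 and 7.41 in Veh 4 to 9. The groups overlapped through Veh 8 at 7.41, and Con spanned 3.35 to 8.29. The difference was 3.48 ± 0.91 (SE, limma adjusted p = 0.336). Sult1d1, a sulfotransferase, had 5.74, 7.65 and 8.79 in Dex 4 to 9, against 5.83, 6.42 and 7.04 in Veh 4 to 9. Dex 7 was the lowest of all 12 mice for Sult1d1 and 4 other Dex livers lay above every Veh liver. Dex 1 to 3 had 8.79 to 9.17, at or above the top of the range in Dex 4 to 9.

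Interferon-stimulated genes had a lower mean in Dex 4 to 9 for each of the 15 members tested, of 38 listed and 27 on the array. Their median log2 difference was -0.70, beside -0.02 over all genes, and 6 of the 15 had an unadjusted p under 0.05, beside 4.57% of all probe sets in that direction. No member passed the adjusted test. Rsad2 exceeded its array's median in at least 9 arrays, the rule for testing, only with the Veh arrays counted. Its value in Dex 7, 1.49, lay near 1.38, the floor of the scale. The list score ran from -1.15 to -0.21 in Dex 4 to 9, against -0.31 to 1.61 in Veh 4 to 9, and from -0.31 to 0.29 in Con. Without Veh 7 the median was -0.55, and 14 of the 15 were lower.

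The promoters of Isg15, Igtp and the immunoproteasome gene Psmb8 are shown because they hold letters of the interferon response motifs. The 250 bases before the start are printed 5′ to 3′ in the direction of the gene, from RefSeq on GRCm38.p6, with capitals on each of the motifs GAAANNGAAA and TTCNNNGAA. Isg15 lies at chr4:156200819-156201068 on the minus strand, Igtp at chr11:58199306-58199555 on the plus strand and Psmb8 at chr17:34197945-34198194 on the plus strand.
Isg15: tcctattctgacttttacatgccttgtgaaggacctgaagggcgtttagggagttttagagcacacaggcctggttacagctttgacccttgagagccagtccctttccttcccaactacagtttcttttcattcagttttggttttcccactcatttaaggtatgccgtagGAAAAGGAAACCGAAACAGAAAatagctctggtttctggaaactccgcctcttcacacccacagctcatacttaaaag
Igtp: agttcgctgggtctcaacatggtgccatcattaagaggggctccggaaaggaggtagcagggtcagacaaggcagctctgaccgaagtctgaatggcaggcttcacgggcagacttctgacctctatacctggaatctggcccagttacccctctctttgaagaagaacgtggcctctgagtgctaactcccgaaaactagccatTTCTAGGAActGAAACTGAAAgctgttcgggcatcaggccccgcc
Psmb8: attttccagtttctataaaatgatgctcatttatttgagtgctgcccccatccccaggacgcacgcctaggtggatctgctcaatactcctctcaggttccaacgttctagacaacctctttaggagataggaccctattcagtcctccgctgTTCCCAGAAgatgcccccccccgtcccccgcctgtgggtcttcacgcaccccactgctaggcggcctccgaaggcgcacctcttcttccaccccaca

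In the Isg15 promoter the capitals hold 3 overlapping copies of GAAANNGAAA, an ISRE-like run, and end 57 bases before the start. The Igtp promoter holds 1 copy, which ends 25 bases before the start, and the run of capitals before it is 1 copy of TTCNNNGAA. The Psmb8 promoter holds 1 copy of TTCNNNGAA, a GAS-like run, which ends 89 bases before the start. Searched on both strands in windows from 250 bases before to 50 after the start, GAAANNGAAA was present in 1131 of 32851 promoters (3.44%) and in 6 of 13 interferon-stimulated genes tested that had a promoter sequence. TTCNNNGAA was present in 8.3% of all promoters, in 4 of the 13 and in 2 of 12 class I presentation genes. The shares of all promoters count sequences, while a listed gene counted if any of its promoters matched, so the measures differ. Both motifs were found in the promoters of Igtp and Ifitm3. A match describes letters only and does not show binding.

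Isg15, a ubiquitin-like antiviral modifier, had log2 intensities of 4.04, 5.50 and 6.33 in Dex 4 to 9, against 6.14, 6.58 and 8.23 in Veh 4 to 9. Of the 6 Dex livers, 5 lay below every Veh liver, and the exception was Dex 8. The difference was -1.43 ± 0.42 (SE, limma adjusted p = 0.337), and -1.13 without Veh 7. Iigp1, an interferon-induced GTPase, had 8.47, 9.66 and 10.37 in Dex 4 to 9, against 10.03, 10.46 and 13.74 in Veh 4 to 9. Its difference of -1.51 ± 0.44 (SE, limma adjusted p = 0.337) was -0.95 without Veh 7.

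Igtp, a GTPase of the same family, had 4.92, 5.80 and 6.56 in Dex 4 to 9, against 6.25, 7.02 and 11.65 in Veh 4 to 9. Its difference was -1.87 ± 0.60 (SE, limma adjusted p = 0.372) and -1.07 without Veh 7, which had the highest value. The smallest differences of the list were those of Lgals3bp at -0.12 and Ifitm3 at -0.17, which were -0.06 and 0.01 without Veh 7. Irf1 and Irf7, transcription factors of the pathway, had differences of -0.32 and -0.56, and of -0.08 and -0.22 without Veh 7.

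**Figure D2:**
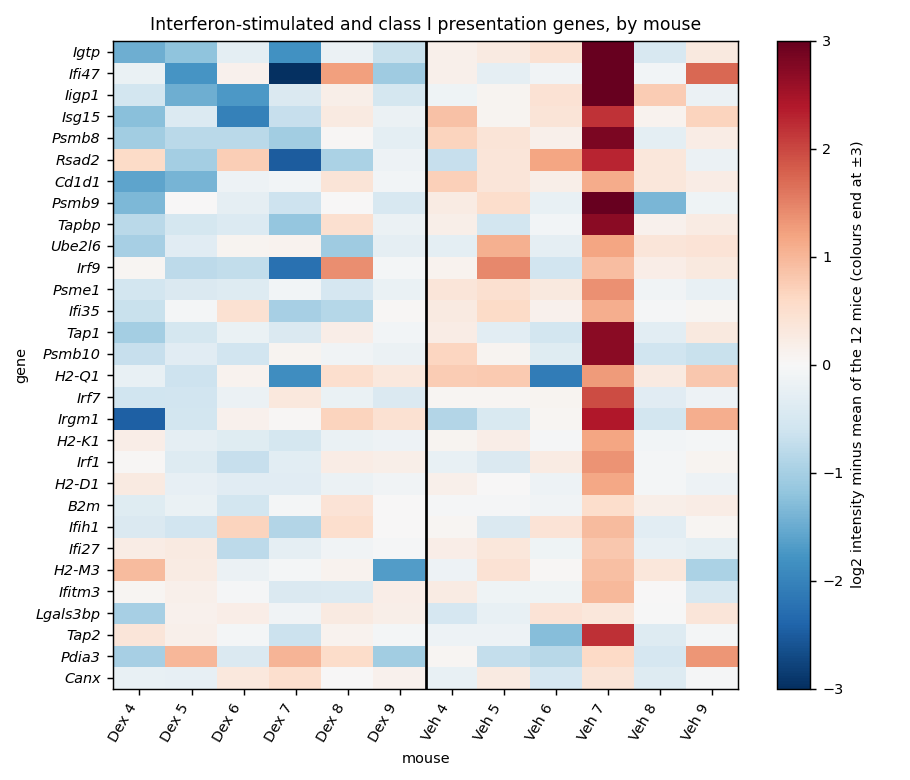
Log2 intensity minus the mean of the 12 mice for 30 interferon-stimulated and class I presentation genes (rows, ordered by their difference) in Dex 4-9 (left of the line) and Veh 4-9 (right of the line). The column of Veh 7 is high for most genes, and the 5 other Veh columns are closer to the mean.

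Class I antigen presentation, which loads peptides cut by the immunoproteasome on surface molecules, had 13 of 15 tested members lower in Dex 4 to 9, of 20 listed. The median log2 difference was -0.59, and 5 members, all lower, had an unadjusted p under 0.05, beside 4.57% of all probe sets in that direction. Without Veh 7 the median was -0.21, 12 members were lower and 3 had such a p, and without Dex 7 the median was -0.37. The 4.57% was taken with Veh 7 included. Without Veh 7, 669 of all 6784 probe sets had such a p, counted in either direction. Psmb8, an immunoproteasome subunit, had 6.74, 6.99 and 7.83 in Dex 4 to 9, against 7.49, 8.10 and 10.62 in Veh 4 to 9. The difference was -1.32 ± 0.37 (SE, limma adjusted p = 0.336), and -0.89 without Veh 7, where 4 of the 6 Dex livers still lay below every Veh liver.

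Psme1, a subunit of the proteasome activator PA28, differed by -0.72 ± 0.21 (SE, limma adjusted p = 0.337) and by -0.52 without Veh 7. Cd1d1, which presents lipids to NKT cells, had 7.26, 8.74 and 9.22 in Dex 4 to 9, against 9.01, 9.20 and 9.95 in Veh 4 to 9, with Dex 4 the lowest. H2-K1 and H2-D1, the classical heavy chains, had differences of -0.44 and -0.31, and of -0.24 and -0.11 without Veh 7. Their probe sets can also read related class I genes. The constitutive proteasome, the general protease of the cytosol and nucleus, had 10 of 25 members higher and 15 lower, with a median of -0.10.

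MHC class II genes, which mark antigen-presenting cells, had 5 of 7 tested members lower in Dex 4 to 9, with a median of -0.86 that became -0.45 without Veh 7. H2-Aa had 3.32, 6.10 and 7.25 in Dex 4 to 9, against 6.22, 8.11 and 9.43 in Veh 4 to 9 (-2.19 ± 0.59, SE, limma adjusted p = 0.336), while H2-Eb1, at 0.58 (0.84 without Veh 7), and the regulator Ciita, at 0.42, had the opposite sign. Cd74, the invariant chain, had 6.96, 7.88 and 8.64 in Dex 4 to 9, against 7.44, 9.16 and 11.05 in Veh 4 to 9.

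Macrophage and Kupffer cell markers had a lower mean in Dex 4 to 9 for 15 of 16 tested members of 23 listed. The median was -0.53, and 5 members, all lower, had an unadjusted p under 0.05, beside 4.57% of all probe sets in that direction. Without Veh 7 the median was -0.34, 12 of the 16 were lower and 2 had such a p. The 4.57% was taken with Veh 7 included. Without Veh 7, 669 of all 6784 probe sets had such a p, counted in either direction. Ctss, a lysosomal protease of phagocytes, had 5.19, 6.34 and 7.17 in Dex 4 to 9, against 6.34, 7.43 and 8.81 in Veh 4 to 9. Mrc1, the mannose receptor, had 3.92, 4.44 and 5.55 in Dex 4 to 9, against 4.69, 5.49 and 6.26 in Veh 4 to 9. The list score ran from -0.99 to 0.09 in Dex 4 to 9 and from -0.82 to 0.75 in Veh 4 to 9, so the groups overlapped widely. In whole liver RNA, fewer cells of a type and less RNA per cell cannot be told apart. The part of macrophage markers in the interferon and class II differences was not tested.

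Neutrophil markers had the opposite sign. All 4 tested members of 11 listed had a higher mean in Dex 4 to 9, with a median log2 difference of 0.99, or 1.01 without Veh 7. Lcn2, 1 of the 4, is also made by hepatocytes and is among the glucocorticoid-induced genes that the choice of mice used. Without Lcn2 the score of the other 3 was 0.22 to 0.55 in Dex 4 to 9, against -1.08 to -0.05 in Veh 4 to 9 and -0.46 to 0.36 in Con, and their median log2 difference was 0.86. Ly6g, a neutrophil surface protein, had 4.45, 5.27 and 5.76 in Dex 4 to 9, against 3.55, 3.92 and 5.12 in Veh 4 to 9, with 4.89 to 5.66 in Con.

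Target genes of PPARA, the fatty acid receptor that drives peroxisomal and mitochondrial oxidation, had a lower mean in Dex 4 to 9 for 21 of 23 tested members of 31 listed. The median log2 difference was -0.45, and 9 members had an unadjusted p under 0.05, all lower, beside 4.57% of all probe sets in that direction. The sign of the median held when any 1 mouse was left out, with values of -0.51 to -0.34, and no member passed the adjusted test. The score was lowest in Dex 5 at -0.45 and Dex 4 at -0.36, and the other 4 Dex livers lay between 0.26 and 0.62. It ran from 0.29 to 0.98 in Veh 4 to 9 and from -0.21 to 0.37 in Con. The median score was 0.38 in Dex 4 to 9 and 0.65 in Veh 4 to 9, both above the Con range. Without Dex 4 or without Dex 5 the median of the list was -0.34.

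Acaa1b, a peroxisomal thiolase, had 10.20, 12.29 and 12.84 in Dex 4 to 9, against 12.60, 12.82 and 13.20 in Veh 4 to 9, with Dex 5 the lowest and 5 of 6 Dex livers under every Veh liver. Acadm, the medium-chain acyl-CoA dehydrogenase, had 9.84, 10.08 and 11.12 in Dex 4 to 9, against 10.69, 11.02 and 11.17 in Veh 4 to 9. The 2 exceptions were Cyp4a14, at 0.71, and Angptl4, at 0.21 (0.08 without Veh 7), while Cyp4a10 was at -0.01. Both Cyp4a genes code for omega-hydroxylases of fatty acids.

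Cholesterol synthesis had a higher mean in Dex 4 to 9 for all 13 tested enzymes of 20 listed. The median log2 difference was 0.49, and 4 had an unadjusted p under 0.05, beside 4.33% of all probe sets in that direction. The score was 1.46 in Dex 5 and 1.12 in Dex 6, and 0.05 to 0.57 in the other 4 Dex livers. It ran from -0.09 to 0.55 in Veh 4 to 9 and from -0.68 to 0.54 in Con. Dex 1 to 3, outside the comparison, had -0.76 to -0.36. Without Dex 5 the median was 0.26. Fdps, farnesyl diphosphate synthase, had 10.95, 12.22 and 13.40 in Dex 4 to 9, against 10.93, 11.40 and 12.09 in Veh 4 to 9 (0.79 ± 0.30, SE, limma adjusted p = 0.469). Mvk, mevalonate kinase, had 7.29, 7.80 and 8.59 in Dex 4 to 9, against 6.72, 7.36 and 7.53 in Veh 4 to 9, and Dex 5 was the highest.

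**Figure D3:**
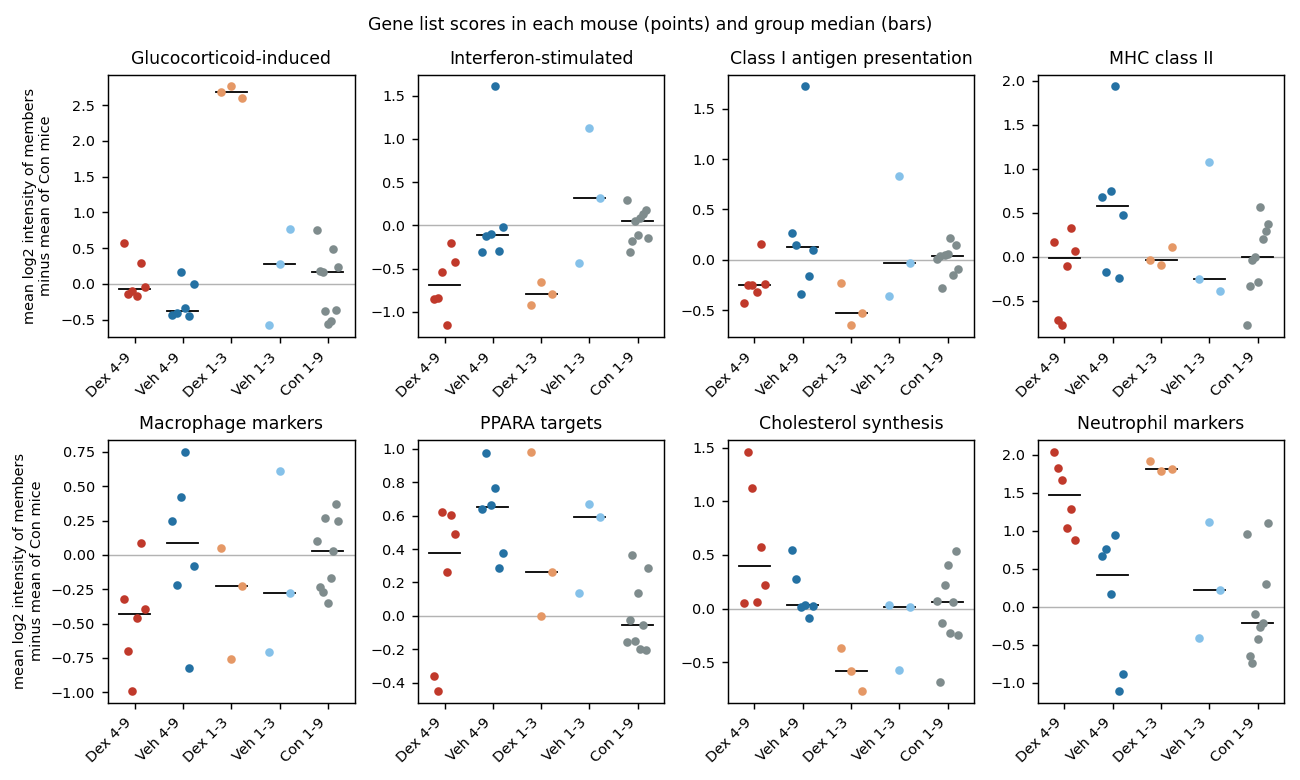
Score of 8 gene lists in each mouse (points), the mean log2 intensity of the tested members minus the mean of the 9 Con mice, with a bar at each group median (neutrophil markers with Lcn2 included). Dex 4-9 lie near Veh and Con for glucocorticoid-induced genes, where Dex 1-3 have 2.60 to 2.76, and Veh 7 is the highest Veh liver for interferon-stimulated, class I and class II genes.

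Complement and coagulation genes had 23 of 29 tested members lower in Dex 4 to 9, with a median of -0.15. Of the members, 7, all lower, had an unadjusted p under 0.05, beside 4.57% of all probe sets in that direction. Mbl2, mannose-binding lectin, had 7.84, 9.19 and 9.79 in Dex 4 to 9, against 9.36, 9.66 and 10.20 in Veh 4 to 9. F5, coagulation factor V, had 8.41, 8.70 and 8.85 in Dex 4 to 9, against 8.15, 9.19 and 9.80 in Veh 4 to 9, with Veh 7 the lowest. The list includes C1qa, C1qb and C1qc, which macrophages make and which were also among the lower macrophage markers. A second C1qb probe set, not the one used for the lists, had the opposite sign, at 0.37.

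Actin cytoskeleton genes had 11 of 17 tested members lower and a median of -0.20, which became -0.09 without Veh 6, -0.31 without Veh 4 or Dex 6, and -0.34 without Veh 8. Tmsb4x, an actin-sequestering peptide, had 7.12, 7.89 and 8.12 in Dex 4 to 9, against 8.20, 8.95 and 9.62 in Veh 4 to 9, without overlap. Actg1, cytoplasmic gamma-actin, had 7.89, 8.87 and 9.14 in Dex 4 to 9, against 9.32, 9.60 and 10.33 in Veh 4 to 9, also without overlap. Dex 1 to 3, outside the comparison, had 10.81 to 11.43 for Actg1, above every Veh 4 to 9 liver. The differences were -1.26 ± 0.30 for Tmsb4x and -1.05 ± 0.25 for Actg1 (SE, limma adjusted p = 0.220 for both). For Tmsb4x it was the Veh median that lay outside the Con range of 7.36 to 8.26, and for Actg1 the Dex median lay outside the Con range of 9.02 to 9.82. Actb, beta-actin, differed by 0.34 ± 0.57 (SE), with overlapping groups, and by 0.65 without Veh 7.

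**Figure D4:**
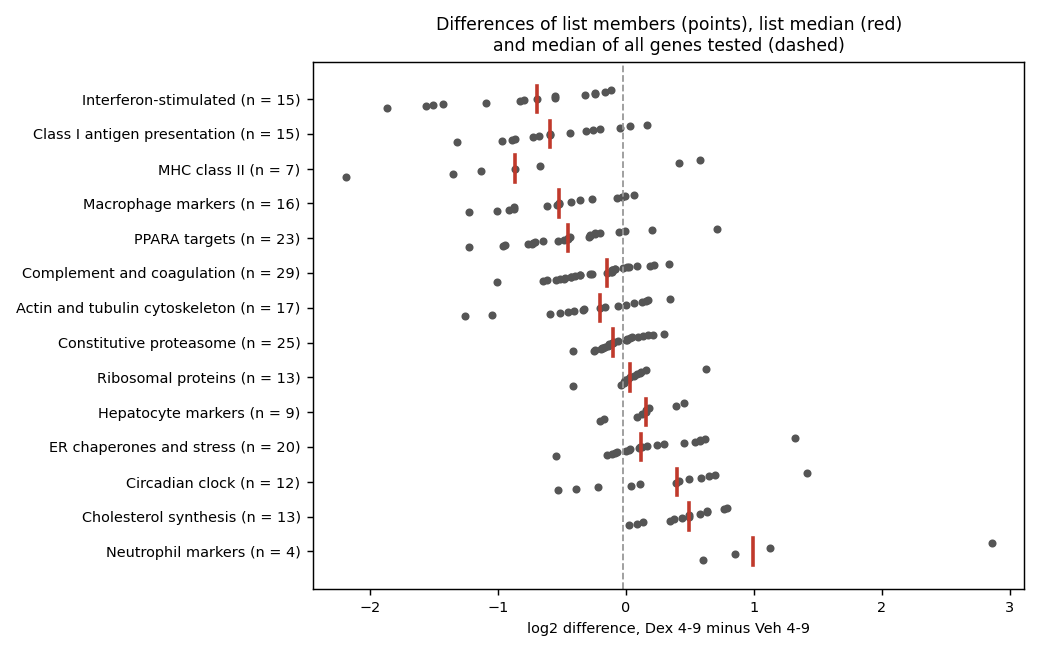
Log2 difference, Dex 4-9 minus Veh 4-9 (horizontal axis), of the tested members of 14 gene lists (points), with the median of each list in red and the median of all genes tested, -0.02, as a dashed line. Medians run from -0.86 for MHC class II to 0.99 for neutrophil markers, with hepatocyte markers at 0.15, ribosomal proteins at 0.03 and the constitutive proteasome at -0.10.

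The remaining 26 lists with at least 4 tested members had medians between -0.33, for immediate early genes, and 0.40, for clock genes. When each mouse was left out in turn these medians ran from -0.46 to -0.10 and from 0.26 to 0.45. Of 292 members in them, 13 had an unadjusted p under 0.05 and a higher level in Dex, beside 4.33% of all probe sets, and 19 had a lower one, beside 4.57%. Hnf4a, a master regulator of hepatocyte genes, had 6.89, 7.77 and 9.34 in Dex 4 to 9, against 6.13, 7.03 and 7.58 in Veh 4 to 9. Con livers had 7.17 to 8.92 for Hnf4a, a range that held the Dex median and lay above the Veh median. Ghr, the growth hormone receptor, had 7.83, 9.42 and 9.74 in Dex 4 to 9, against 8.96, 10.03 and 10.29 in Veh 4 to 9. A second Ghr probe set differed by only -0.11. Neither gene passed the adjusted test.

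The mice differed widely in genes with sex-biased expression in mouse liver. Cyp7b1, an oxysterol hydroxylase, had 7.22, 8.36 and 10.95 in Dex 4 to 9, against 5.61, 7.03 and 9.25 in Veh 4 to 9 and 9.57 to 10.97 in Con. Cyp2b9, a P450 of female liver, had 4.50, 7.0 and 10.57 in Dex 4 to 9, against 7.63, 9.45 and 10.94 in Veh 4 to 9 and 1.38 to 4.34 in Con, where 1.38 is the floor of the scale. All 12 livers had more Cyp2b9 than any Con liver. The spread within Dex 4 to 9 and within Veh 4 to 9 was of the size of the difference between them, which did not pass the adjusted test for either gene (-2.29 ± 1.18 for Cyp2b9 and 1.35 ± 0.70 for Cyp7b1, SE).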

How the data were processed

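Liver RNA of 27 mice was measured on 1 Affymetrix array per mouse. Per the labels, total RNA was extracted and checked for degradation before labelling. The deposited table, made by the authors, gives 1 linear intensity per probe set and array, and the sources used here do not name the summary software. The trimmed mean of the arrays (2% cut from each end) lay between 100.1 and 100.2, so no further scaling was applied. Intensities under 2.6, the 10th percentile of positive values, were raised to it (1.38 on the log2 scale), and all values were analysed as log2 intensity.

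The 66 control probe sets were left out. A probe set was tested where it exceeded its array's median in at least 9 of 27 arrays, which kept 6784 of 12488 rows. The annotation gave 1 symbol to 10855 of them all, several to 396 and none to 1237. A gene with several probe sets is represented by the brightest on average.

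Means of 5 sets (Dex 4 to 9, Veh 4 to 9, Dex 1 to 3, Veh 1 to 3 and Con) were fitted with limma 3.58.1 in R 4.3.3 (eBayes with a mean trend, 22 residual degrees of freedom, two-sided, Benjamini-Hochberg over the 6784 probe sets, threshold 0.05), and the procedure was tested on simulated data. Differences are Dex minus Veh on the log2 scale, and array measures had an exact permutation test over 924 splits. The number of arrays limits the precision, and p-values measure the spread between mice. Same-numbered Dex and Veh mice did not deviate together (correlations of -0.15 to 0.13, over 0.1 in 1 of 6 pairs), so the numbers were not taken as pairs. The mice, the 43 gene lists and the tests were chosen with earlier results of these data known. The named genes were the 8 with the smallest p in each direction, those called with all 9 mice a group, a fixed set of marker and glucocorticoid-induced genes, and at most 3 leading members, by p, of each list. Alternatives covered normalization, the floor, the filter, the arrays in the fit, the replicate block, RNA quality covariates, array weights and leaving out each mouse. Promoter sequences were from RefSeq.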

Additional observations from a re-analysis of the deposited data

Results flagged for a closer look

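In 11 of 152 groups of 6 mice, 1 mouse lay far from the other 5 for a gene or array measure, and chance sets apart about 1 in 20 such groups. Veh 7 accounted for 6 of the 11. It was high for Psmb8 at a log2 intensity of 10.62 (next Veh liver 8.47), for Igtp at 11.65 (next 7.19), for Iigp1 at 13.74 (next 10.97) and for H2-DMa at 8.94 (next 7.25). It was low for the bile acid transporter Slc10a1 at 10.35 (next 11.22) and for Ghr at 8.96 (next 9.87).

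Among the other Veh livers, Veh 8 was high for Tff3 at 7.41 (next 4.54) and Veh 9 for Iars2 at 7.26 (next 6.78). Among the Dex livers, Dex 5 was low for Afm at 7.91 (next 8.69), Dex 6 for the complement gene C1qb at 4.58 (next 5.53), and Dex 8 for the steroid enzyme Hsd3b5 at 5.20 (next 8.46).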

How the results depend on the processing

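The count of probe sets past the test was 1. It was 0 in the fit of the 18 Dex and Veh arrays (limma, 451 at an unadjusted p under 0.05) and 0 with the replicate number as a block (limma, 574 unadjusted), and 1 to 2 when each mouse was left out in turn. The block was fitted to the 12 arrays alone, where 101515_at was already lost without it (limma adjusted p = 0.185, and 0.528 with it). The numbers were not found to pair the mice. The count of probe sets without overlap, 22, was 4 against all 9 Veh mice and 30 to 58 when each mouse was left out. The cause of the lost calls was not tested, and fewer mice alone make separation easier to meet. The 3′ to 5′ ratios kept their sign, with a Dex minus Veh difference of -0.211 to -0.106 for beta-actin and -0.260 to -0.164 for Gapdh when each mouse was left out. Of 72 named genes, 71 had the same sign under every alternative in which they were tested, and 7 genes were not tested under the stricter filter. The exception was Pck1, a gluconeogenesis enzyme with a difference of -0.22 (0.24 at most). Of 41 lists, 24 kept the sign of their median throughout, among them the interferon, class I, class II, macrophage, PPARA, cholesterol, complement and neutrophil lists. Signals near the floor of 1.38 limit what can be read for dim genes such as Icmt and Ly6g.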
